A study of Homo sapiens with 6 samples.

Results

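The genes described are the numbered zinc finger genes of chromosome 19, measured in T47D cells kept in hypoxia or in normoxia. T47D is an established luminal-like breast cancer cell line. A gene was a member if its symbol was ZNF and a number with no hyphen, if every exon listed for it lay on chromosome 19, and if its mean over the 6 libraries was at least 20 counts. The deposited tables listed 255 symbols of this form among 27754 genes. Of these, 240 reached the mean count and are the members, and 15 did not. All 240 members also passed the filter on low counts that was applied to every gene. The rule used the mean over both conditions. In 3 members, ZNF404, ZNF541 and ZNF880, the normoxia mean was below that minimum, so that they are members only through their hypoxia libraries.

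Messenger RNA was sequenced for 3 libraries labelled hypoxia (0.5% O2 for 48 h) and 3 labelled normoxia (20% O2, with no duration in the labels). All 6 libraries came from adherent T47D cells grown in RPMI medium with fetal bovine serum, with no genetic change and no drug. A single cell line was used, so the values describe T47D and not breast cancer cells in general. The study's text names a different low oxygen level for this experiment, and the level given here is that of the labels. The labels do not say whether the 3 replicates of a condition were separate cultures. The study describes its data in general as from independent experiments and treats the hypoxia and normoxia libraries as paired. The p-values measure the spread between these libraries.

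C2H2 zinc finger proteins bind DNA through a tandem array of short fingers, each folded around a zinc ion. Many of those encoded on chromosome 19 also carry a KRAB domain near the amino terminus, which recruits the corepressor TRIM28 (also called KAP1). TRIM28 in turn brings the histone methyltransferase SETDB1 and HP1 proteins, and the complex is known for silencing transposable elements. The genes arose by repeated tandem duplication and lie in clusters along the chromosome, so neighbours often have closely similar sequences.

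A short coding stretch of the KRAB A box was read from the GRCh37 genome (the same build as hg19, which the deposited tables use). It was located by a pattern of amino acids, has 24 bases, lies in 1 exon and was found in 174 members. The pattern fixes part of the likeness in advance, and members without a match are left out. The differences below therefore describe this stretch and do not measure how alike the members are. The first sequence below gives the most frequent base at each position over these 174 genes. In the others, capitals mark the bases that differ from it. The genes shown are those with the largest increases and decreases in hypoxia, described below, that contain the stretch.
most frequent base: ctgtacagggatgtgatgctggag
ZNF699, higher in hypoxia, minus strand, chr19:9413079-9413102: ctCtacagAgatgtgatgctggaA
ZNF546, higher, plus strand, chr19:40513259-40513282: TtgtacaAggatgtgatgTtggag
ZNF160, higher, minus strand, chr19:53578335-53578358: TtAtacagggaCgtgatgTtggag
ZNF610, higher, plus strand, chr19:52857013-52857036: TtAtacagggaCgtgatgTtggag
ZNF841, higher, minus strand, chr19:52580236-52580259: TtgtacagggaCgtgatgTtggag
ZNF350, higher, minus strand, chr19:52472283-52472306: ctgtacCgggatgtgatgTtggag
ZNF229, higher, minus strand, chr19:44936440-44936463: ctgtacCAAgatgtgatgcAggag
ZNF552, lower in hypoxia, minus strand, chr19:58324687-58324710: ctgtacCgTgatgtgaCgctggag
ZNF587B, lower, plus strand, chr19:58350469-58350492: ctgtacCgTgatgtgaCTctggag
ZNF544, lower, plus strand, chr19:58757745-58757768: ctgtacCgAgaGgtgaCActggag

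ZNF160 and ZNF610, which lie in the same cluster, had the same 24 bases. ZNF552 and its neighbour ZNF587B shared all of their differences from the most frequent base except 1. Over the 174 genes the median number of differing bases was 3.5 (range 0 to 9). It was 3.5 in the 86 genes that were higher in hypoxia, 3.0 in the 12 that were lower and 4.0 in the 76 that did not pass the test. The coding sequences of 233 members held a median of 12 fingers by pattern (range 0 to 39), the most in ZNF729. No coding sequence was matched for the other 7, of which 5 have pseudogene symbols.

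Total counts per library ran from 32989104 to 40943424 except for hypoxia replicate 3, which had 89883409. Replicates 1 and 2 of a condition were closer to each other than either was to replicate 3, with a chi-square per degree of freedom over genes of 8.08 in normoxia and 6.09 in hypoxia, against 34.7 to 68.5 for the pairs with replicate 3. VEGFA, a textbook hypoxia-induced gene, was at 34.2 to 46.5 counts per 1000000 (CPM, with library sizes scaled by the TMM method of edgeR) in normoxia and 764 to 834 in hypoxia, and CA9, another, was at 0.194 to 0.937 and 21.1 to 31.5. All 8 luminal breast markers were present, with a summed level of 13211 to 17516 CPM in normoxia and 9370 to 12756 in hypoxia. ESR1, PGR, GATA3 and FOXA1 were lower in hypoxia. KRT8, KRT18, KRT19 and EPCAM did not pass, at log2 fold changes of -0.51, -0.36, -0.04 and 0.03. With the replicate number as a block, KRT8 and KRT18 were also lower. The part of these markers and of the depth of replicate 3 in the results was not tested. Of the markers of other cell types (basal, fibroblast, leukocyte and endothelial, 3 each), COL1A1 alone exceeded 1.88 CPM in any library, with means of 88.7 in normoxia and 84.3 in hypoxia. In bulk RNA, fewer cells of a kind and less RNA per cell cannot be told apart.

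More chromosome 19 zinc finger genes were higher in hypoxia than lower, and about as many did not pass the test as did. By edgeR's quasi-likelihood test with Benjamini-Hochberg adjustment over all 15657 genes tested, 103 of the 240 members were higher (42.9%) and 19 were lower (7.92%), and 118 did not pass at an adjusted p of 0.05. Over all genes tested, 30.4% were higher and 29.1% lower, so that 59.5% passed in either direction. The median log2 fold change of the members was 0.37 (interquartile range 0.04 to 0.63), against 0.03 over all genes. The changes were small for single genes. Only 18 members that passed rose by at least 1 on the log2 scale (7.5%, against 15.2% of all genes), and none fell that far (4.91% of all genes did).

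Without the 3 members that reached the minimum only in hypoxia, 101 were higher and 19 lower. A positive median was present in each library pair. The median log2 difference over the members was 0.33, 0.35 and 0.36 in the pairs of replicate 1, 2 and 3. In all 3 pairs 166 members were higher and 37 lower, where 42.9% and 40.1% of all genes were. The 3 hypoxia values lay above all 3 normoxia values for 126 members and below them for 21, where 34.9% and 32.4% of all genes did. The members together took 0.350%, 0.369% and 0.302% of all counts in normoxia replicates 1 to 3, and 0.479%, 0.484% and 0.413% in hypoxia. The groups did not overlap on this share.

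How many members passed depended on the fit. With the replicate number as a block, 144 members were higher and 30 lower (36.6% and 35.2% of all genes). With upper-quartile scaling factors, which moved the median of all genes up by 0.16, 136 were higher and 7 lower (38.1% and 21.0% of all genes), so that 95.1% of the calls were higher rather than 84.4%. The median of the members exceeded the median of all genes by 0.34 on either scaling. Without both libraries of replicate 1, 38 were higher and 3 lower.

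**Figure D1:**
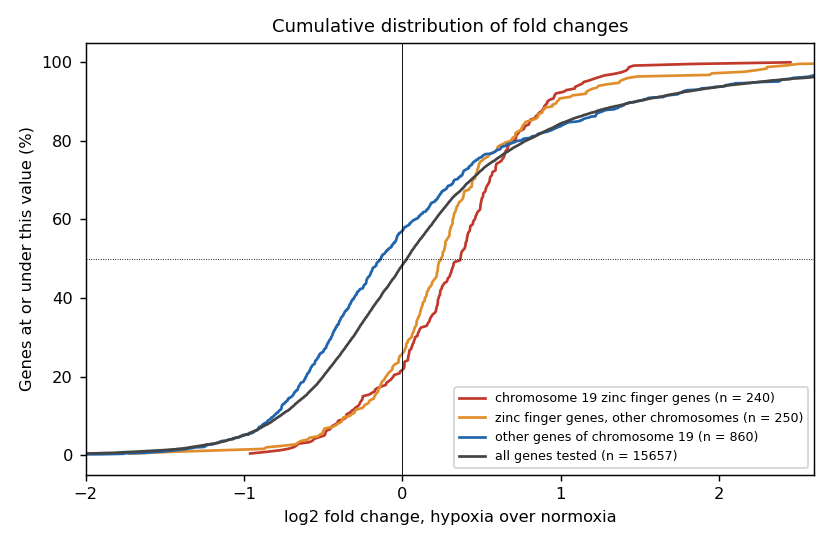
Cumulative distribution of the log2 fold change (hypoxia over normoxia, x axis) as the percentage of genes at or under each value (y axis), for the 240 chromosome 19 zinc finger genes, 250 zinc finger genes of other chromosomes, 860 other genes of chromosome 19 and all 15657 genes tested. The curve of the members crosses 50% at 0.37 and that of all genes at 0.03, and the members reach neither tail of all genes.

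The same symbol rule applied to other chromosomes gave 250 genes. Of these 98 were higher (39.2%) and 27 lower (10.8%), where 30.4% and 29.1% of all genes tested were. Their median log2 fold change was 0.25. Of the other 860 genes of chromosome 19, 231 were higher (26.9%) and 300 lower (34.9%), with a median of -0.14. With upper-quartile factors the corresponding medians were 0.40 and 0.02. Neither difference from the members was tested. A median shift was therefore seen in zinc finger genes on and off chromosome 19 and, with TMM factors, had the opposite sign in the rest of the chromosome.

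Among members averaging at least 100 counts, the 8 with the largest increases were ZNF667, ZNF699, ZNF546, ZNF160, ZNF229, ZNF350, ZNF610 and ZNF841. Each contains the KRAB A pattern described below. ZNF160 (chr19:53569867-53606687, minus strand) was the second of them by level per kilobase in hypoxia, at 11.3 CPM per kilobase. Its levels were 23.7, 26.4 and 20.8 CPM in normoxia and 62.9, 73.2 and 49.2 CPM in hypoxia. The groups did not overlap, and its log2 fold change was 1.38 ± 0.16 (SE, n = 3 and 3; edgeR adjusted p = 0.000294). ZNF841 (chr19:52561353-52599018, minus strand) had the smallest p-value of its cluster. Its levels were 19.7, 19.1 and 17.4 CPM in normoxia and 44.6, 45.9 and 39.6 CPM in hypoxia, which gave a log2 fold change of 1.21 ± 0.10 (edgeR adjusted p = 8.14e-05). In both genes the third replicate was the lowest of each condition.

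ZNF350 (chr19:52467593-52490079, minus strand), the highest of them at 18.6 CPM per kilobase in hypoxia, also known as ZBRK1 and described as a partner of BRCA1 in repression, was at 18.4, 17.8 and 18.0 CPM in normoxia and 41.6, 35.3 and 53.9 CPM in hypoxia. The normoxia values were nearly equal and the hypoxia values spread more widely, with a log2 fold change of 1.28 ± 0.15 (edgeR adjusted p = 0.000348). ZNF667 (chr19:56950693-56988770, minus strand) was at 7.22, 8.30 and 5.49 CPM in normoxia and 22.6, 22.1 and 13.4 CPM in hypoxia. Its log2 fold change of 1.46 ± 0.23 was the largest of the 8 (edgeR adjusted p = 0.0013). The other 4 had means of 2.02 to 5.26 CPM in normoxia and 5.44 to 12.5 CPM in hypoxia, and none overlapped between the groups. Their log2 fold changes were 1.42 ± 0.18 for ZNF699, 1.41 ± 0.30 for ZNF546, 1.34 ± 0.15 for ZNF229 and 1.24 ± 0.19 for ZNF610. ZNF546 was the least certain of the 8, and its adjusted p rose from 0.00467 to 0.059 without replicate 1.

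Among members with fewer than 100 counts on average, ZNF880 (chr19:52873170-52889046, plus strand) was singled out after its values were seen. It had 18, 23 and 8 counts in normoxia and 107, 118 and 148 in hypoxia. Its normoxia mean is below the membership minimum, so its fold change (2.45 on the log2 scale) is given as a description only, from a mean of 0.444 ± 0.180 to 2.50 ± 0.813 CPM (SD, n = 3 each). ZNF880 lies between ZNF610 and ZNF528, both of which were also higher.

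The 8 largest decreases, by the same rule, were those of ZNF781, ZNF552, ZNF628, ZNF544, ZNF702P, ZNF576, ZNF580 and ZNF587B. ZNF552 (chr19:58318450-58326281, minus strand) was the highest of them per kilobase. Its levels were 94.5, 110 and 79.1 CPM in normoxia and 59.1, 51.6 and 45.8 CPM in hypoxia. The groups did not overlap, and its log2 fold change was -0.86 ± 0.14 (edgeR adjusted p = 0.00147). ZNF544 (chr19:58740047-58788858, plus strand) was at 63.5, 60.6 and 63.4 CPM in normoxia and 41.9, 38.8 and 36.1 CPM in hypoxia. Its replicates were close, and it had the smallest p-value of the last cluster on the chromosome (log2 fold change -0.68 ± 0.08, edgeR adjusted p = 0.000405).

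ZNF580 (chr19:56152392-56154836, plus strand) encodes a short protein with 3 fingers by pattern and no KRAB A pattern. It was at 30.4, 31.0 and 33.6 CPM in normoxia and 21.4, 18.5 and 23.3 CPM in hypoxia, which gave a log2 fold change of -0.58 ± 0.11 (edgeR adjusted p = 0.00241). ZNF781 (chr19:38158650-38183216, minus strand), at 5.80, 6.07 and 6.46 CPM in normoxia and 3.01, 2.46 and 3.85 CPM in hypoxia, had the largest decrease in log2 terms (-0.96 ± 0.19). Its groups did not overlap. ZNF628, ZNF702P, ZNF576 and ZNF587B had log2 fold changes of -0.77, -0.67, -0.66 and -0.57. Of these, ZNF628, ZNF576 and ZNF587B passed narrowly, with adjusted p-values of 0.018, 0.0244 and 0.0207, and each lost its call without hypoxia replicate 2. ZNF587B was the only one of the 8 whose groups overlapped. ZNF576 and ZNF587B also lost it with upper-quartile factors (adjusted p = 0.052 and 0.086). ZNF702P is a pseudogene of the family. Without replicate 1 the adjusted p was 0.0588 for ZNF702P and 0.0501 for ZNF781.

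**Figure D2:**
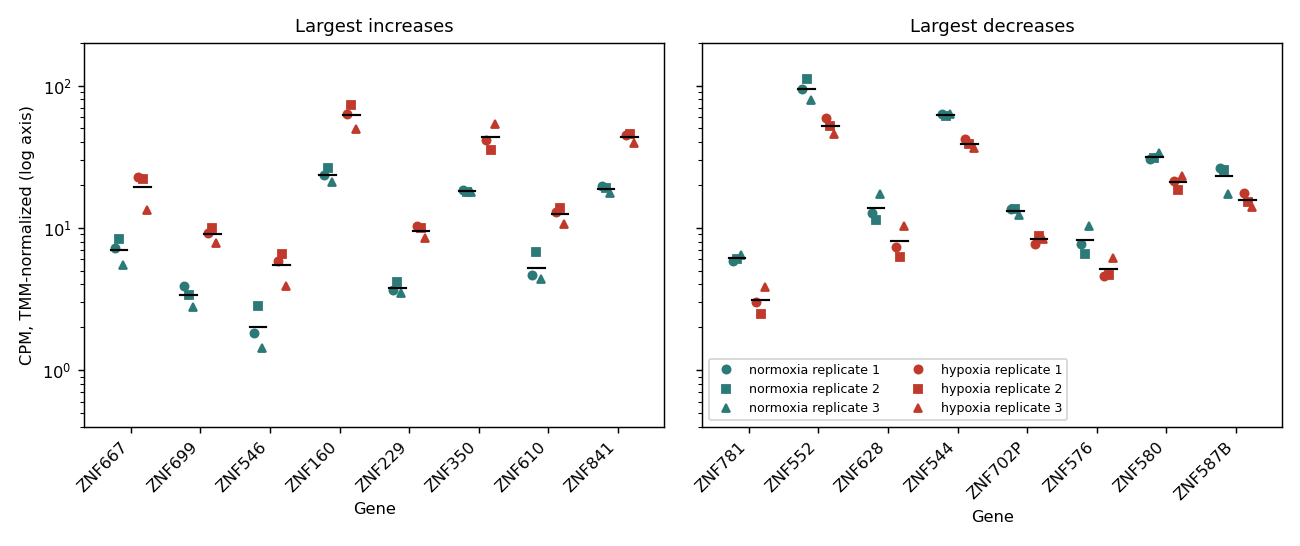
TMM-normalized CPM (log axis) of the 8 members with the largest increases (left) and the 8 with the largest decreases (right), one marker per library, with the condition by colour, the replicate by marker shape and the mean of the 3 libraries as a bar. All 3 hypoxia values lie above all 3 normoxia values in each gene on the left, from 3.91 to 6.53 against 1.42 to 2.82 for ZNF546 and from 49.2 to 73.2 against 20.8 to 26.4 for ZNF160.

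Levels of different members can be compared only per length, as CPM per kilobase of exon averaged over the 6 libraries. The median level was 3.40 CPM per kilobase, with quartiles at 2.02 and 5.43 and a range of 0.154 to 32.1. Only 11 members were above 10 CPM per kilobase and 19 were under 1. The 5 highest were ZNF146, ZNF552, ZNF83, ZNF444 and ZNF274, at 32.1, 31.2, 26.7, 18.2 and 17.2 CPM per kilobase. The order differed by condition. Per kilobase, ZNF552 was at a mean of 40.2 CPM in normoxia and 22.2 in hypoxia, ZNF146 at 28.5 and 35.7, and ZNF83 at 19.5 and 33.9.

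ZNF146 (OZF), a protein made almost entirely of fingers, was at 112, 114 and 104 CPM in normoxia and 154, 143 and 116 CPM in hypoxia. It passed narrowly (log2 fold change 0.32 ± 0.11, edgeR adjusted p = 0.0359) and lost the call when any library except hypoxia replicate 3 was left out, with adjusted p-values of 0.072 to 0.141. It also shares 249 exon bases with ZNF565, which lies beside it and was higher too. ZNF83 (chr19:53115618-53193834, minus strand) was at 69.0, 89.2 and 49.7 CPM in normoxia and 125, 140 and 97.5 CPM in hypoxia, which gave a log2 fold change of 0.80 ± 0.21 (edgeR adjusted p = 0.0132). The groups did not overlap, but the replicates differed widely within each, and without replicate 1 the adjusted p was 0.0851. ZNF444 was at 37.3, 38.8 and 52.8 CPM in normoxia and 29.4, 28.1 and 38.6 CPM in hypoxia. Each hypoxia value was below the normoxia value of the same replicate number while the groups overlapped, and the adjusted p was 0.0629 without and 0.000465 with the replicate block (log2 fold change -0.42 in both).

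ZNF274, which is known to recruit SETDB1 through TRIM28 to the 3' ends of zinc finger genes, was steady. Its levels were 48.2, 47.9 and 49.2 CPM in normoxia and 51.5, 51.1 and 50.9 CPM in hypoxia, which gave a log2 fold change of 0.08 ± 0.07 (edgeR adjusted p = 0.348, and 0.021 with upper-quartile factors). ZNF91, a repressor of SVA retrotransposons, was at 18.9, 21.3 and 14.4 CPM in normoxia and 30.0, 30.0 and 25.5 CPM in hypoxia. It rose by 0.64 ± 0.15 on the log2 scale (edgeR adjusted p = 0.00739, and 0.0697 without replicate 1). The members averaging at least 100 counts whose log2 fold change was nearest to 0 were ZNF776, ZNF468 and ZNF784, at -0.00, 0.01 and 0.01. Their intervals of 2 SE ran from -0.36 to 0.36, from -0.21 to 0.23 and from -0.27 to 0.30. Changes of the size of the members' median were outside the interval of ZNF468 and ZNF784. For ZNF776 such a change lay at the edge of the interval and is not excluded.

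At the lower edge of the membership rule, the members nearest to the minimum were ZNF404, with a mean of 27.0 counts, and ZNF575, with 33.3. Just outside it were ZNF471, with 17.8, and ZNF321P, with 7.17. ZNF404 was at 0.152, 0.537 and 0 CPM in normoxia and 1.04, 0.875 and 0.678 CPM in hypoxia. ZNF471 was at 0.0507, 0.376 and 0.194 CPM and at 0.667, 0.683 and 0.361 CPM. Only in ZNF404 of these 4 genes did the conditions not overlap, and its 0.537 CPM in normoxia replicate 2 was close to the lowest hypoxia value.

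Members were grouped into clusters along the chromosome by joining neighbours whose starts lay less than 1 Mb apart, which gave 9 clusters of at least 5 members and 10 scattered members. Each cluster had a positive median log2 fold change, from 0.16 to 0.56, and kept the sign when any library or number was left out. By pair, only the cluster from ZNF807 to ZNF792 had a negative median. It was at 0.18, -0.08 and 0.07 in the pairs of replicate 1, 2 and 3. Beside the shares of each cluster stand those of all genes tested, 30.4% higher and 29.1% lower. The cluster from ZNF653 to ZNF791 (chr19:11594242-12740676, 26 members) had the highest median, 0.56, with 17 members higher (65.4%) and none lower. Within it, ZNF439, ZNF69, ZNF700, ZNF763 and ZNF433 were 5 neighbours in a row that were all higher, and ZNF136, ZNF44, ZNF563, ZNF442 and ZNF799 were another 5. ZNF439 (chr19:11959548-11980306, plus strand), which had the smallest p-value of the cluster, was at 9.55, 10.6 and 10.6 CPM in normoxia and 15.4, 16.6 and 17.7 CPM in hypoxia. ZNF653 and ZNF878, at log2 fold changes of -0.45 and -0.48 that did not pass (adjusted p = 0.077 and 0.11), were the lowest of the cluster and passed with the replicate block.

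The cluster from ZNF175 to ZNF331 (chr19:52074490-54083523, 40 members) had 22 members higher (55.0%) and 2 lower (5.0%), with a median of 0.48. Its medians were 0.46, 0.43 and 0.70 in the pairs of replicate 1, 2 and 3. It held 9 of the 18 members that rose by at least 1. The 22 higher members and these 9 both include ZNF880, a member only through its hypoxia libraries. ZNF432, ZNF841, ZNF616, ZNF836 and ZNF766 (chr19:52534632-52795976) were 5 consecutive members that were all higher, with log2 fold changes of 0.59 to 1.21. ZNF616 was at 12.4, 13.5 and 11.8 CPM in normoxia and 27.8, 28.4 and 29.3 CPM in hypoxia, and its neighbour ZNF836 at 8.92, 9.30 and 7.07 CPM and 18.7, 20.2 and 16 CPM. A second row of 5 ran from ZNF665 to ZNF765 and included ZNF525, at means of 21.8 CPM in normoxia and 48.2 CPM in hypoxia, and the pseudogene ZNF818P. The 2 members that were lower, ZNF649 and ZNF702P, stood alone between members that were higher or did not pass.

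The cluster from ZNF628 to ZNF446 at the end of the long arm (chr19:55987699-59000900, 56 members) was the largest. It had 13 members higher (23.2%) and 9 lower (16.1%), both shares below those of all genes tested (30.4% and 29.1%). Its median log2 fold change was 0.18, with pair medians of 0.17, 0.08 and 0.19. It contained 9 of the 19 members that were lower, among them ZNF628, ZNF580, ZNF552, ZNF587B and ZNF544 described above, and ZNF551, ZNF814, ZNF329 and ZNF584, with log2 fold changes of -0.41, -0.45, -0.36 and -0.35. ZNF552 and ZNF587B (chr19:58318450-58357606) were the only adjacent pair of members that were both lower. Higher and lower members were interspersed, and ZNF667, with the largest increase of the 8 genes above, lies in the same cluster. When clusters were split at gaps of 0.5 Mb, the part from ZNF628 to ZNF835 (15 members) had a median of 0.03 and the part from ZNF264 to ZNF446 (41 members) one of 0.21. Without normoxia replicate 3 the median of the whole cluster was 0.10, and without both libraries of replicate 3 it was 0.12. Whether the clusters differ was not tested.

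The cluster from ZNF101 to ZNF254 (chr19:19778962-24312769, 35 members), a region that includes ZNF91, had a median of 0.25. In it 13 members were higher (37.1%) and 3 lower (8.57%), against 30.4% and 29.1% of all genes tested. The longest row of the chromosome was here, with ZNF93, ZNF682, ZNF90, ZNF486, ZNF737 and ZNF626 (chr19:20011722-20844402) all higher by 0.40 to 0.72 on the log2 scale. ZNF93, like ZNF91, is known to repress retrotransposons. The largest increase with a small error was that of ZNF493, at 20.2, 25.4 and 18.6 CPM in normoxia and 49.3, 46.4 and 36.2 CPM in hypoxia (log2 fold change 1.03 ± 0.16, edgeR adjusted p = 0.00098). The 3 lower members, ZNF43, ZNF729 and ZNF726, lie further along the cluster. ZNF43 was at 33.7, 31.6 and 26.7 CPM in normoxia and 23.2, 22.6 and 23.7 CPM in hypoxia, and ZNF729, the member with the most fingers, fell by 0.56 on the log2 scale.

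The cluster from ZNF557 to ZNF846 (13 members) had 8 higher (61.5%) and 1 lower (7.69%), with a median of 0.45. ZNF358, which has no KRAB A pattern, had its smallest p-value, at 10.7, 12.4 and 12.8 CPM in normoxia and 22.6, 21.7 and 25.2 CPM in hypoxia (log2 fold change 0.96 ± 0.11). The cluster from ZNF565 to ZNF573 (26 members) had 13 higher and 1 lower, with a median of 0.41. In it ZNF420, described as a KRAB protein that restrains p53, led a row of 4 with ZNF585A, ZNF585B and ZNF383, and was at 12.8, 12 and 12.3 CPM in normoxia and 23.4, 27.0 and 22.2 CPM in hypoxia (log2 fold change 0.97 ± 0.11, edgeR adjusted p = 0.000262). The cluster from ZNF575 to ZNF296 (24 members) had 10 higher (41.7%) and 1 lower (4.17%), with a median of 0.39. It was led by ZNF229 at 3.65, 4.17 and 3.49 CPM in normoxia and 10.2, 10.0 and 8.42 CPM in hypoxia. The clusters of 5 members, ZNF554 to ZNF77 and ZNF807 to ZNF792, each had 1 higher (ZNF554 and ZNF181, the latter at an adjusted p of 0.119 without replicate 1) and 1 lower (ZNF77 and ZNF30), with medians of 0.23 and 0.16. These medians moved from 0.12 (without replicate 2) to 0.36 (without replicate 1) in the first, and from 0.06 (without replicate 3) to 0.20 (without replicate 2) in the second. Leaving out normoxia replicate 1 or normoxia replicate 3 gave 0.35 or 0.13 in the first, and leaving out hypoxia replicate 2 gave 0.14 in the first and 0.09 in the second, where leaving out hypoxia replicate 3 gave 0.10.

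**Figure D3:**
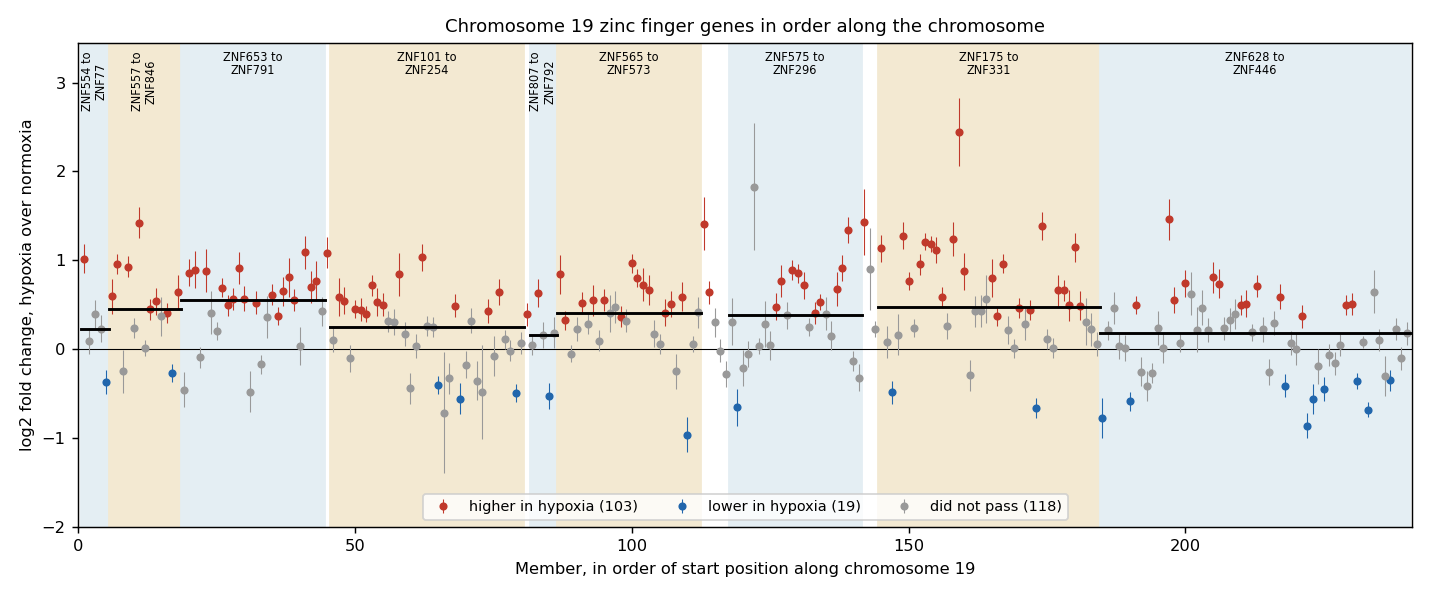
Log2 fold change of each of the 240 members (hypoxia over normoxia, y axis, bars show the SE) in order of start position along chromosome 19 (x axis), coloured by the test's call, with shaded clusters named by their first and last member and a black line at each cluster's median. In the cluster from ZNF653 to ZNF791, whose median is 0.56, 22 members lie above 0 and 4 below. The last cluster, whose median is 0.18, holds 9 of the 19 lower members. They are 16.1% of its members, against 29.1% lower among all genes tested.

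**Figure D4:**
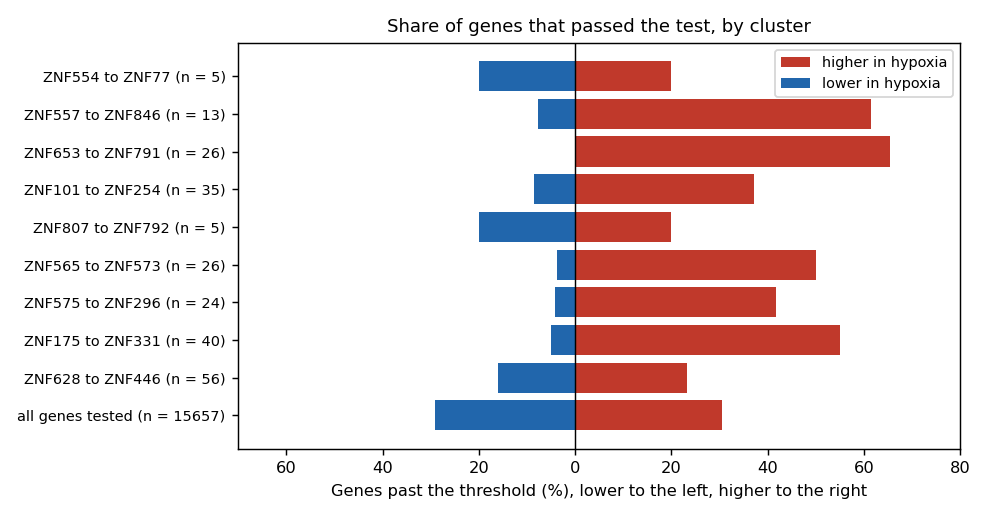
Percentage of members in each cluster that were higher (bars to the right) or lower (bars to the left) in hypoxia by the quasi-likelihood test, with all genes tested in the last row. The share higher runs from 20.0% in the clusters of 5 to 65.4% in the cluster from ZNF653 to ZNF791, against 30.4% of all genes.

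Members were next compared by what they encode. A pattern for either of 2 conserved stretches of the KRAB A box was searched in every coding transcript and was found in 199 members. Of these 95 were higher and 13 lower, with a median log2 fold change of 0.41. It was not found in 34 members, which had a median log2 fold change of 0.14. Of these 34, 6 were higher (ZNF358, ZNF507, ZNF146, ZNF529, ZNF541 and ZNF581) and 4 lower (ZNF576, ZNF628, ZNF580 and ZNF329). ZNF541 is a member only through its hypoxia libraries. The share higher without the pattern, 17.6%, depends on the pattern used. A narrower pattern tried first, on 1 stretch and the longest coding sequence, left 67 members without it, of which 35.8% were higher, and the wider one was adopted after that result was seen. With the pattern found, 47.7% of members were higher by the wide and 46.4% by the narrow search, against 30.4% of all genes tested. The difference between the classes was not tested.

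By number of fingers, 32 of the 57 members with at least 16 fingers were higher (56.1%) and 5 lower (8.77%), with a median log2 fold change of 0.49. Members with 11 to 15 fingers numbered 98, with 36 higher (36.7%), 6 lower (6.12%) and a median of 0.25. Members with 6 to 10 fingers numbered 65, with 31 higher (47.7%), 4 lower (6.15%) and a median of 0.39. In the 13 members with up to 5 fingers, 2 were higher and 2 lower (15.4% each) and the median was 0.04. Over all genes tested, 30.4% were higher and 29.1% lower. The values did not follow the number of fingers in order. Genes with more fingers also have longer transcripts, and after a trend of fold change on exon length over all genes was removed, the members' median was 0.31 against -0.00 for all genes.

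Reads can be shared between near-identical members and between genes whose exons overlap, and how such reads were counted is not given in the sources used here. Among the 215 members with no exon base shared with another gene, 91 were higher (42.3%) and 18 lower (8.37%), with a median of 0.37. Among the 25 that share exon bases, 12 were higher (48.0%) and 1 lower (4.0%). The shares of all genes tested were 30.4% and 29.1%. Similar sequence elsewhere in the family, unlike shared exons, could not be checked from the counts. Members on the plus strand (132) and minus strand (108) had medians of 0.35 and 0.37.

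Other zinc finger genes of these clusters do not carry a ZNF symbol. Of 14 such genes looked up, 11 were tested. Of these, 6 were higher and 1 lower, where 30.4% and 29.1% of all genes tested were. The 6 include ZIK1, ZIM2 and PEG3, which passed the filter on low counts only through their hypoxia libraries. Their calls are a description only. Because of how these 3 entered, the share of the list that was higher is not compared with that of all genes. ZFP14, ZFP28 and ZSCAN22 were higher, by 0.84 ± 0.21, 0.35 ± 0.11 and 0.47 ± 0.12 on the log2 scale, and ZSCAN5A was lower, by -0.88 ± 0.22. ZIK1, with at most 11 counts in a normoxia library and 16 to 60 in hypoxia, was also higher. PEG3, an imprinted gene, and ZIM2, which shares its exons in part, were nearly silent in normoxia, with at most 1 count in a library. PEG3 had 21, 18 and 46 counts in hypoxia, a mean of 0.505 ± 0.0134 CPM (SD, n = 3), which is at least 5.21-fold higher than the level of 3 counts in the shallowest normoxia library. The same bound for ZIM2 was 5.42-fold, from a mean of 0.525 ± 0.265 CPM (SD, n = 3). Its hypoxia libraries spread widely, at 0.815, 0.465 and 0.295 CPM, so this bound holds for the mean and not for each library. These values are low throughout, and reads of the shared exons cannot be assigned to one of them.

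In a list of KRAB cofactors and heterochromatin proteins, more transcripts were lower than higher. Of 27 genes for TRIM28, its partners and related heterochromatin proteins, 4 were higher (14.8%), 13 lower (48.1%) and 10 did not pass, where 30.4% of all genes were higher and 29.1% lower. Their median log2 fold change was -0.27. With upper-quartile factors 6 were higher and 10 lower, so that the higher share of the calls was 37.5% rather than 23.5%, against 64.5% and 51.1% for all genes. Whether the list differs from other genes was not tested. TRIM28 itself lies on chromosome 19, beyond the last cluster (chr19:59055836-59062082, plus strand). It was at 416, 388 and 508 CPM in normoxia and 345, 325 and 432 CPM in hypoxia, so that each hypoxia value was below the normoxia value of its number while the groups overlapped. The log2 fold change was -0.25 ± 0.14 (edgeR adjusted p = 0.154), and with the replicate block -0.25 (adjusted p = 0.00209). Of the HP1 genes, CBX3 was lower, by -0.48 ± 0.07 on the log2 scale (edgeR adjusted p = 0.000738). CBX1 and CBX5 did not pass (edgeR adjusted p = 0.279 and 0.103).

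SETDB1, a histone methyltransferase, was at 106, 110 and 95.5 CPM in normoxia and 131, 137 and 122 CPM in hypoxia. It was higher by 0.32 ± 0.08 (edgeR adjusted p = 0.0116), a call that was lost without replicate 1 (0.126) or replicate 2 (0.0673). ATF7IP, the cofactor that stabilizes SETDB1 in the nucleus, was lower, at a log2 fold change of -1.05 ± 0.10, with 73.7, 76.7 and 62.4 CPM and 33.8, 33.0 and 35.9 CPM. Other histone methyltransferases of heterochromatin were lower, with log2 fold changes of -1.07 ± 0.19 for SUV39H1, -0.51 ± 0.11 for SUV39H2 and -0.54 ± 0.08 for EHMT2. Without replicate 1 SUV39H2 no longer passed (adjusted p = 0.0633). The maintenance DNA methyltransferase DNMT1 fell to 105 from 202 CPM (log2 fold change -0.94 ± 0.16), and UHRF1, which brings it to replicated DNA, fell to 33.9 from 115 CPM (log2 fold change -1.76 ± 0.15). MORC3, an ATPase of silent chromatin, was higher by 0.73 ± 0.09. MPHOSPH8 and DNMT3A were the other genes of the list that were higher, by 0.46 and 0.37. Their part in the change of the zinc finger genes was not tested.

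Promoters were looked at last, because the hypoxia-inducible factors bind a short core with the letters ACGTG or GCGTG. Promoters of 206 members were matched in RefSeq's GRCh38.p14 annotation, from 250 bases before to 50 after the start, and both motifs were searched on both strands. Where CACGTG occurs, ACGTG matches on each strand, so those matches overlap. Each member was given 1 promoter, while the 16338 promoters of the genes tested include more than 1 for some genes. At least 1 motif was present in 124 promoters (60.2%), against 59.7% of the promoters of all genes tested and 48.4% of the 35116 promoters in the table. Among members that were higher it was present in 51 of 93 (54.8%), among those that were lower in 12 of 13 (92.3%) and among the others in 61 of 100. ACGTG alone was in 18.9% of the members' promoters and 25% of those of tested genes. The promoters of members that rose thus did not hold the letters more often than the promoters of all genes tested, and the lower group is small.

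The windows below show 25 bases of the promoter in the direction of the gene for members with large changes, with the motif or its reverse complement in capitals.
ZNF667, higher in hypoxia, GRCh38.p14 minus strand, chr19:56477499-56477523: acgcgcttgtGCGTGtggcgctgag
ZNF546, higher, plus strand, chr19:39996938-39996962: tcagcttcctGCGTGggttcctggt
ZNF841, higher, minus strand, chr19:52095900-52095924: cccacctagtCACGCcccctaccgc
ZNF628, lower in hypoxia, plus strand, chr19:55476573-55476597: aactcggagtACGTGcgttgtgacg
ZNF544, lower, plus strand, chr19:58228889-58228913: cggagcgcgggCACGTccgccggcc
ZNF587B, lower, plus strand, chr19:57830240-57830264: tcctgtgtgcACGTGacaatgggtc

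The ZNF667 promoter held 7 matches before the start, all of GCGTG. No match was found before the start in ZNF699, ZNF160 and ZNF350, which were also among the largest increases, and in ZNF587B a single CACGTG gave both of its matches. A match is a description of these letters and not of binding.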

How the data were processed

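Messenger RNA libraries were prepared with a stranded kit and sequenced, and per the labels and methods the authors made raw read counts per gene with FastQC 0.11.5, Skewer, STAR 2.5.2a and featureCounts 1.5.1 on hg19 with RefSeq annotation. The deposited counts are not normalized. How strand and multiply mapped reads were handled is not given in the sources used here, which matters for a family of similar genes. The 6 libraries were grouped by their labels as hypoxia or normoxia, 3 each.

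Genes were filtered with filterByExpr (minimum count 10, minimum total 15), scaled by TMM and tested by edgeR 4.0.16 quasi-likelihood F-tests in R 4.3.3, with Benjamini-Hochberg adjustment over all 15657 genes and calls at an adjusted p of 0.05. The script was tested on simulated counts. Differences within pairs used log2 of CPM plus 0.1. Alternatives were DESeq2 1.42.0, the edgeR exact test, other scaling factors, no filter, a replicate block, leaving out libraries, other cluster gaps and removal of a length trend. Same-numbered libraries deviated together (correlation 0.338, 0.422 and 0.575 for numbers 1 to 3), and the block lowered the common coefficient of variation from 0.141 to 0.0751. Libraries of different numbers were not set beside these correlations, so they do not settle which library pairs with which.

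The members, clusters and gene lists were chosen with earlier results of these data known. The named genes were the 8 largest changes each way past the threshold among genes averaging at least 100 counts with 1 direction in all 3 pairs, the 5 highest per length, the smallest p in each cluster, the 2 genes on each side of the count minimum, the 3 nearest to no change, cofactors past 0.5 on the log2 scale with TRIM28 and SETDB1, VEGFA, CA9, ZNF274 and ZNF91. Fingers and KRAB patterns were searched in translated GENCODE transcripts of GRCh37. A finger was C, 2 or 4 residues, C, 12 residues, H, 3 to 5 residues, H.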

Additional observations from a re-analysis of the deposited data

How the results depend on the processing

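The number of members that passed depended on the libraries and the scaling, while the median stayed positive in every alternative run. Leaving out 1 library, or both of 1 number, gave 38 to 131 members higher, 3 to 32 lower and a median log2 fold change of 0.27 to 0.43. The counts moved by over 1.5 times without both libraries of replicate 1 (38 higher and 3 lower), without those of replicate 2 (7 lower), without those of replicate 3 (32 lower), without hypoxia replicate 2 (9 lower) and without normoxia replicate 1 (12 lower). Over all genes these settings gave 2648 to 5751 higher and 2191 to 5506 lower, over zinc finger genes of other chromosomes 40 to 131 and 11 to 31, and over the cofactor list 1 to 4 and 6 to 17. The replicate block gave 30 members lower and upper-quartile factors 7. The median was 0.52 with upper-quartile factors and 0.31 with the length trend removed. With cluster gaps of 0.5 Mb the lowest cluster median was 0.0347, and with 2 Mb the lowest was 0.23 and the highest 0.54. Requiring a mean of 20 counts in each condition, an alternative chosen after seeing the data, left 237 members with 101 higher, 19 lower and a median of 0.36. The causes were not tested. DESeq2 (110 and 22), the edgeR exact test (109 and 21), relative log expression factors (102 and 19) and no filter on low counts (105 and 17) changed little, and all 103 members called higher were also higher by DESeq2, the exact test, the block and upper-quartile factors.

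The members nearest to no change took the opposite sign under some settings. ZNF776 was at 9.78e-05 by the exact test, 0.0121 with the block, 0.15 with upper-quartile factors and -0.17 to 0.13 over left-out libraries. ZNF468 was at -0.00245 by DESeq2, -0.00174 with relative log expression factors and -0.0679 to 0.0792 over left-out libraries, and ZNF784 at -0.000752 with relative log expression factors and -0.0349 to 0.0600 over left-out libraries. Of the 44 named genes, 24 kept their direction and their side of the threshold in every alternative. The block added calls for ZNF404, ZNF444, ZNF471 and TRIM28 and changed no other call among the named genes.

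Depth limits the rarest members. A count of 3 in the shallowest normoxia library is 0.0969 CPM, a floor that covers counting error only, while the intervals of 2 SE also include the spread between libraries.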
